A study of Mus musculus with 16 samples.

Results

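The *Tmem176* and *Ms4a* genes encode membrane proteins of immune cells that cross the membrane several times and resemble CD20, the B cell antigen. The 8 members described here are *Tmem176a*, *Tmem176b*, *Ms4a4a*, *Ms4a4c*, *Ms4a6b*, *Ms4a6c*, *Ms4a6d* and *Ms4a7*, out of 48432 genes in the authors' table. They were named as a family, and the family was chosen by the values of *Tmem176a*, whose ratio of LDAH-KO to WT is among the lowest of the table. The ratios of LDAH-KO to WT are therefore a description and support nothing by themselves.

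RNA was sequenced from thioglycolate-elicited peritoneal macrophages (PM) of C57BL/6J mice, 16 samples in 4 groups of 4. LDAH, the lipid droplet-associated hydrolase, was deleted in LDAH-KO PM and overexpressed in LDAH-Tg PM. The label of LDAH-KO is "LDAH KO", that of its controls (WT) "LDAH WT", that of LDAH-Tg "LDAH overexpression", and that of its controls (Control) "LDAH ApoE control". All PM were taken 5 days after 3% thioglycolate and then held with oxidized LDL (oxLDL) at 50 μg/ml for 48 h. The KO allele exchanges early coding exons for a cassette in every cell. The transgene is driven by *Csf1r* sequences in myeloid cells, and its founders came from a mixed background that was then crossed to C57BL/6. The study bred both lines also onto *Apoe*-/-. Of the labels, only that of Control, by the word ApoE, speaks to whether the mice carried that allele, and age and sex are not given in the labels.

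The table holds the authors' mean TPM (transcripts per 1000000, a level per length) of each group. No value of a single mouse can be seen, so the differences below carry no SD and no test. How deeply each library was sequenced is also unknown. A ratio is the log2 of 1 mean over the other after 0.5 TPM was added to each, for genes with a mean of at least 1 TPM over both groups and neither at 0. Counts of higher or lower genes use a factor of 1.5 as the limit, a matter of size alone. In these bulk samples, fewer cells of a type and less RNA per cell cannot be told apart. *Ldah* itself stood at 27.9 TPM in LDAH-KO against 44.5 TPM in WT, and at 124 TPM in LDAH-Tg against 28.5 TPM in Control.

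As background, TMEM176A and TMEM176B sit in intracellular membranes of dendritic cells and macrophages, where they are described as cation channels, and TMEM176B as a brake on the NLRP3 inflammasome. MS4A proteins associate with immune receptors at the cell surface. MS4A1 is CD20 of B cells, MS4A2 is the beta chain of the IgE receptor of mast cells, and MS4A4A partners dectin-1 (*Clec7a*) in macrophages. The human *MS4A* locus is tied to the level of soluble TREM2. In mouse, *Ms4a7* is a macrophage marker and MS4A6D has been tied to the control of *Nlrp3*.

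The family lies in 2 places (GRCm38, GENCODE M21). *Tmem176b* (chr6:48833818-48841496, minus strand) and *Tmem176a* (chr6:48840919-48847071, plus strand) stand head to head, and their exons overlap by 81 bases. The *Ms4a* members lie on chromosome 19, from *Ms4a7* (chr19:11321039-11336146, minus strand) over *Ms4a4a* (chr19:11375523-11392790, plus strand), *Ms4a4c* (chr19:11404770-11427246, plus strand), *Ms4a6c* (chr19:11469366-11482192, plus strand) and *Ms4a6b* (chr19:11516512-11531256, plus strand) to *Ms4a6d* (chr19:11586604-11604849, minus strand). The coding sequences of *Ms4a6b* and *Ms4a6d* were identical at 80.2% of aligned bases, those of *Ms4a6b* and *Ms4a6c* at 74.6%, and those of *Ms4a6c* and *Ms4a6d* at 67.3%. *Ms4a4a* and *Ms4a4c* shared 59.9%, *Tmem176a* and *Tmem176b* 52.9%, and a *Tmem176* member with an *Ms4a* member between 46.6% and 49.0%. Some pairs of *Ms4a* members were as low, such as *Ms4a4c* and *Ms4a7* at 46.6% and *Ms4a6c* and *Ms4a7* at 48.7%. These shares therefore do not set the 2 groups of genes apart. Between a *Tmem176* and an *Ms4a* member the longest identical run was 5 to 9 bases. The share that unrelated coding sequences reach in such an alignment was not measured.

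The first 60 coding bases of the 3 *Ms4a6* members are shown because these close copies differ in level by up to 144 times, and those of the *Tmem176* members because both were lower in LDAH-KO. The capitals mark the start codon, and each sequence was read from the GENCODE M21 transcripts, from the coding start.
Ms4a6b: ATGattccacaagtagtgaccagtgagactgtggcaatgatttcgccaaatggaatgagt
Ms4a6c: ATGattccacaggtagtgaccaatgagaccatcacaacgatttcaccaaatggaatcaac
Ms4a6d: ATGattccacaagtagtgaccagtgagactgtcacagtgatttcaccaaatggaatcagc
Tmem176a: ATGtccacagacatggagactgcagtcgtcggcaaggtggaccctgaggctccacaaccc
Tmem176b: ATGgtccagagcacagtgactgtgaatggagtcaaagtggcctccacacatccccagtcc
In this stretch *Ms4a6b* and *Ms4a6d* matched at 54 of 60 positions, *Ms4a6c* and *Ms4a6d* at 53, *Ms4a6b* and *Ms4a6c* at 49, and the *Tmem176* members at 30. No 100-base window of the exons of *Ms4a6b* or *Ms4a6d* occurs in another gene on the same strand, and the longest identical coding run between them was 81 bases. In *Ms4a6c*, 0.513% of such windows also occur in *Prdm11*, and in *Ms4a4c* 1.66% also in *Ms4a4b*. *Ms4a6c* also lies opposite *BE692007* over 45.8% of its windows. Whether the counting used the strand of the reads is not given in the sources used here, and *BE692007* was listed at 0.017 to 0.137 TPM.

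*Ms4a6d*, *Ms4a7* and *Ms4a6c* made up most of the family's RNA in every group. *Ms4a6d* had 270.5 TPM in WT, 276 TPM in LDAH-KO, 234 TPM in Control and 195 TPM in LDAH-Tg. It held 60.9%, 60.2%, 57.3% and 55.04% of the summed TPM of the 8 members in the same order. *Ms4a7* had 120 TPM in WT, 137 TPM in LDAH-KO, 122 TPM in Control and 110 TPM in LDAH-Tg. *Ms4a6c*, a gene of monocytes and macrophages, had 27.8, 30.6, 30.015 and 25.5 TPM. These levels put *Ms4a6d* at the 94.0th, *Ms4a7* at the 88.4th and *Ms4a6c* at the 61.7th percentile of the genes with a mean of at least 1 TPM over the groups.

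The *Tmem176* members had lower levels. *Tmem176b* had 12.99 TPM in WT, 7.04 TPM in LDAH-KO, 12.7 TPM in Control and 13.2 TPM in LDAH-Tg. *Tmem176a* had 9.71, 3.85, 7.51 and 8.04 TPM. In both genes the LDAH-KO mean was the lowest of the 4, and the other 3 lay within 12.7 to 13.2 TPM for *Tmem176b* and within 7.51 to 9.71 TPM for *Tmem176a*. *Ms4a6b*, best known from T cells, was at 2.72 TPM in WT, 3.13 TPM in LDAH-KO, 1.82 TPM in Control and 1.35 TPM in LDAH-Tg.

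*Ms4a4a* and *Ms4a4c* were close to 0 and did not reach the minimum of 1 TPM, so 6 of the 8 members enter the comparisons. *Ms4a4a* had 0.236, 0.241, 0.260 and 0.303 TPM in WT, LDAH-KO, Control and LDAH-Tg. *Ms4a4c*, an interferon-inducible gene of myeloid cells, had 0.104, 0.462, 0.244 and 0.447 TPM, so that it stood above *Ms4a4a* in LDAH-KO and LDAH-Tg and below it in WT and Control. The order of the other 6 was the same in all 4 groups: *Ms4a6d*, *Ms4a7*, *Ms4a6c*, *Tmem176b*, *Tmem176a* and *Ms4a6b*. With means alone, which neighbours in this order differ beyond their spread cannot be said.

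**Figure D1:**
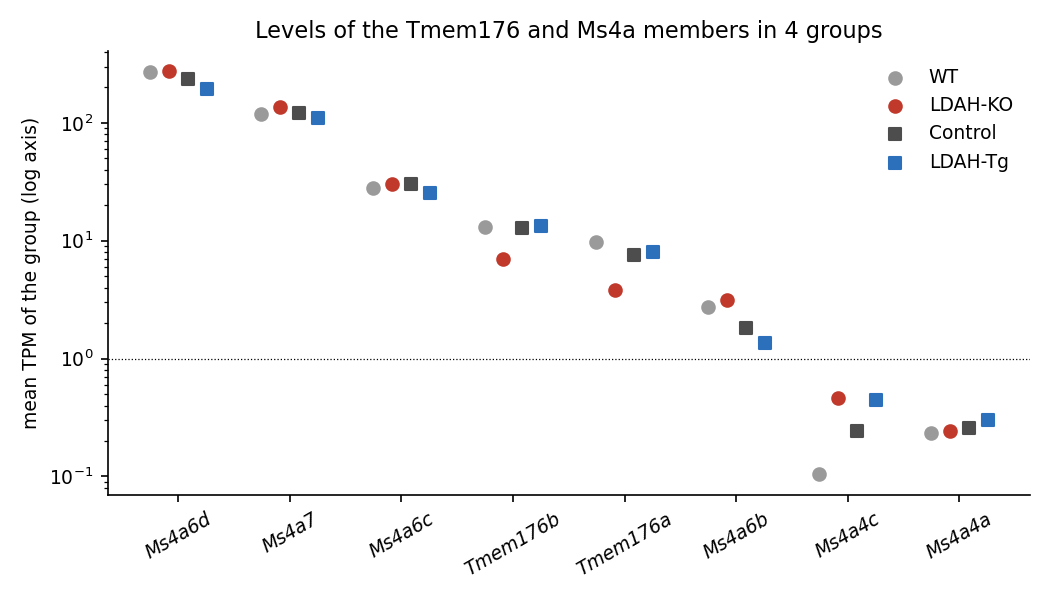
Authors' mean TPM (log axis) of the 8 members in WT, LDAH-KO, Control and LDAH-Tg PM, 1 point for each group mean, with a dotted line at 1 TPM. The members run from *Ms4a6d*, at 195 to 276 TPM, down to *Ms4a4a*, at 0.236 to 0.303 TPM, and the LDAH-KO points of *Tmem176a* and *Tmem176b* sit below the other 3.

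The *Ms4a6* members, though close in coding sequence, were far apart in level. *Ms4a6d* had 99.6 times the TPM of *Ms4a6b* in WT, 88.0 times in LDAH-KO, 129 times in Control and 144 times in LDAH-Tg. Against *Ms4a6c* the factor was 9.72, 9.02, 7.81 and 7.62 in the same order. *Tmem176b* stood 1.34 times above *Tmem176a* in WT, 1.83 times in LDAH-KO, 1.70 times in Control and 1.65 times in LDAH-Tg.

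The comparison of LDAH-KO with WT asks how the loss of LDAH goes with the foam cell's transcriptome. Of the 6 members compared, *Tmem176a* and *Tmem176b* were lower past a factor of 1.5 in LDAH-KO, and none was higher. Over 11289 genes, 1.83% were lower and 0.39% were higher by that size, and nothing is read from the 2 members, since this contrast chose the family. *Tmem176a* had a log2 ratio of -1.23, a mean in LDAH-KO of 0.396 times that in WT, a difference of -5.86 TPM. *Tmem176b* had a log2 ratio of -0.84, a mean of 0.542 times that in WT, a difference of -5.95 TPM. The pair summed to 10.9 TPM in LDAH-KO against 22.7 TPM in WT.

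Among 8680 protein-coding genes with a mean of at least 5 TPM over WT and LDAH-KO, *Tmem176a* had the 2nd lowest ratio. It stood between *Cxcl13*, a B cell chemokine (-1.63), and *Fn1*, the matrix protein fibronectin (-1.19). *Tmem176b* was 16th in this order. Of the *Ms4a* members with this level, *Ms4a6d* was 6306th, *Ms4a6c* 7889th and *Ms4a7* 8317th, all in the part of the list with higher means in LDAH-KO. Among all 11289 genes compared, without this narrower choice, *Tmem176a* had the 25th and *Tmem176b* the 85th lowest ratio.

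The 4 *Ms4a* members compared had log2 ratios of LDAH-KO to WT from 0.03 to 0.19, all above 0, with a median of 0.15. The median of all genes was -0.08, and 33.4% of genes lay above 0. *Ms4a7* had 0.19 (a difference of 16.9 TPM), *Ms4a6b* 0.18, *Ms4a6c* 0.13 and *Ms4a6d* 0.03. These values lie within the 5th to 95th percentiles of all genes, -0.40 to 0.21. The median of all 6 members was 0.08.

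**Figure D2:**
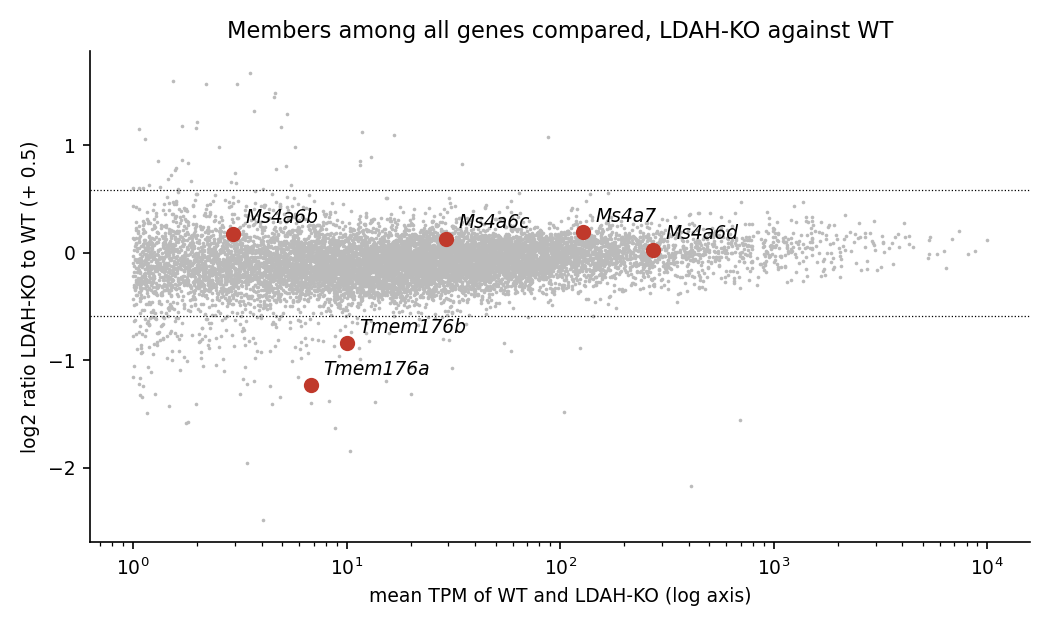
Log2 ratio of LDAH-KO to WT (0.5 TPM added) against the mean TPM of the 2 groups (log axis) for 11289 genes (grey) with the 6 members compared in red and dotted lines at a factor of 1.5. *Tmem176a* (-1.23) and *Tmem176b* (-0.84) lie under the lower line, and the 4 *Ms4a* members lie within the grey band.

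The comparison of LDAH-Tg with Control asks how more LDAH goes with the same genes, in another pair of groups that shares no samples with the first. None of the 6 members was higher or lower past a factor of 1.5, where 1.26% of 11395 genes were higher and 0.685% were lower. *Tmem176a* had a log2 ratio of 0.09 and *Tmem176b* of 0.05. The pair summed to 20.3 TPM in Control and 21.3 TPM in LDAH-Tg.

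The 4 *Ms4a* members had log2 ratios from -0.32 to -0.14 in LDAH-Tg against Control, all below 0, with a median of -0.25. The median of all genes was 0.00, and 49.5% of genes lay below 0. *Ms4a6b* had -0.32, *Ms4a6d* -0.27 (a difference of -39.7 TPM), *Ms4a6c* -0.23 and *Ms4a7* -0.14. The 5th to 95th percentiles of all genes were -0.32 to 0.38, and *Ms4a6b* lay at the lower edge of this range. The summed TPM of the 6 *Ms4a* members was 388 in Control and 332 in LDAH-Tg, and 421 in WT and 447 in LDAH-KO.

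**Figure D3:**
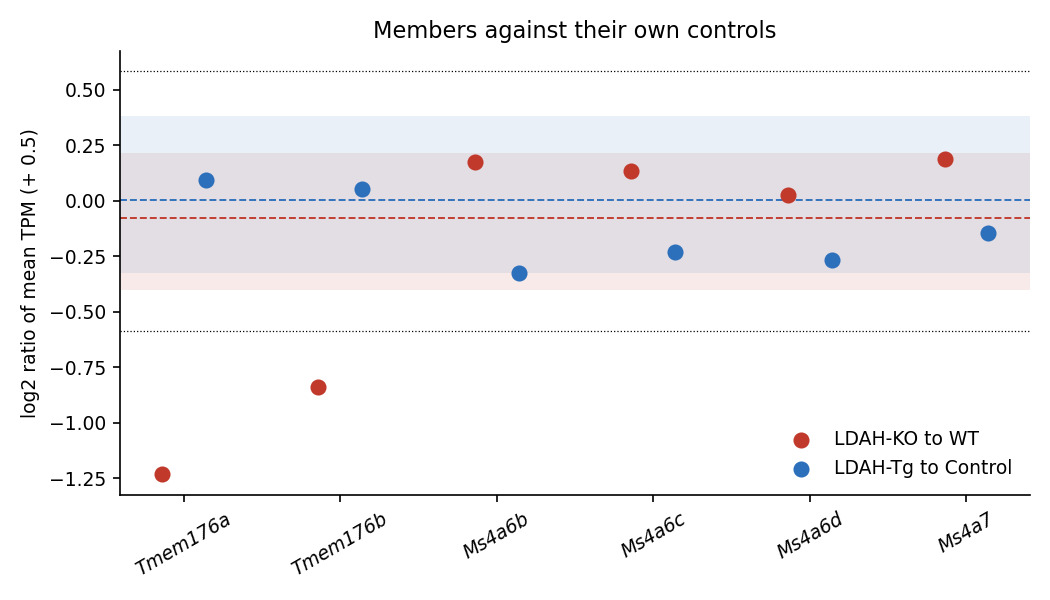
Log2 ratios (0.5 TPM added) of the 6 members compared, LDAH-KO to WT in red and LDAH-Tg to Control in blue. Shaded bands span the 5th to 95th percentiles of all genes in each comparison, dashed lines are their medians and dotted lines a factor of 1.5; *Tmem176a* and *Tmem176b* leave the red band, and the *Ms4a* members have red points above 0 and blue points below it.

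The 2 control groups differed from each other in more genes than either genotype differed from its controls. WT was higher than Control past a factor of 1.5 in 26.5% of 11404 genes (3027) and lower in 12.1% (1377), and the median of all genes was 0.17. The excess of higher genes depended on the scaling, with 2087 higher and 2108 lower after median-ratio scaling and 2090 higher and 2104 lower after quantile normalization. No member passed that size. *Ms4a6b* had a log2 ratio of WT to Control of 0.47, *Tmem176a* of 0.35, *Ms4a6d* of 0.21, *Tmem176b* of 0.03, *Ms4a7* of -0.02 and *Ms4a6c* of -0.11. Relative to the median of all genes, *Tmem176b*, *Ms4a7* and *Ms4a6c* were lower in WT. After the medians were set equal, the value of *Tmem176b* was -0.15. Mouse line, breeding, any batch and a possible difference in *Apoe*, which only the label of Control names, cannot be told apart here. *Apoe* RNA itself had a mean of 9985 TPM over WT and LDAH-KO, and what this level says of the allele was not tested.

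The promoters of the members were searched for motifs, which the choice of the family did not use. RefSeq promoter windows (GRCm38.p6, 250 bases before to 50 after a transcript start) were found for 7 of the 8 members, 11 windows in all. The core of the interferon-stimulated response element, GAAANNGAA on either strand, occurred in 4 of the 11 windows, those of *Ms4a6b*, *Ms4a6c* and *Ms4a7*, and in 8.56% of the 32851 windows of all genes. *Ms4a4a* and *Ms4a4c* had no match. None of the 5 windows of *Tmem176a* and *Tmem176b*, which overlap in part, held it. The 11 windows are thus not independent, and their share was not tested against that of all genes. Stretches of 60 bases around the matches are shown on the strand of the gene, with the match in capitals, because those of *Ms4a6b* and *Ms4a6c* are near copies of each other.
Ms4a6b, chr19:11518327-11518386, plus strand: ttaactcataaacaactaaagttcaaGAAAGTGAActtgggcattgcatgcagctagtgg
Ms4a6c, chr19:11469209-11469268, plus strand: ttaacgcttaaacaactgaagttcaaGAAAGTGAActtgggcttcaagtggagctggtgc
Ms4a7, chr19:11336184-11336243, minus strand: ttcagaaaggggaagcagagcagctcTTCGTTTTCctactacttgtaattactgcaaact
The stretches of *Ms4a6b* and *Ms4a6c* were identical at 49 of 60 positions, while each matched that of *Ms4a7* at 16. Counted from the transcript start, the match began at -206 in *Ms4a6b*, at -133 in *Ms4a6c* and at -71 in *Ms4a7*, where the letters lie on the other strand. The window of a further *Ms4a7* start held a match at -148. The genes that share this stretch differed in level, with *Ms4a6c* at 25.5 to 30.6 TPM and *Ms4a6b* at 1.35 to 3.13 TPM.

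Of the other motifs searched on both strands, the PU.1 core GAGGAAGT (3.20% of all windows) and the TATA box TATAAA (13.6%) were in none of the 11 windows. The AP-1 site TGANTCA (7.81%) and the CCAAT box (37.4%) were each in 1 window, that of the further *Ms4a7* start. No match overlapped another. A match describes letters in the window and not a bound site.

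Along chromosome 19 the cluster holds 19 *Ms4a* genes, of which 4 had a mean over the groups of at least 10 TPM and 13 a mean under 1 TPM. Beside *Ms4a6d*, *Ms4a7* and *Ms4a6c*, the 4th was *Ms4a8a*, a gene known from alternatively activated and tumour macrophages, at 55.8 TPM in WT, 55.7 TPM in LDAH-KO, 43.0 TPM in Control and 35.2 TPM in LDAH-Tg. Its log2 ratio was -0.004 in LDAH-KO and -0.29 in LDAH-Tg. *Ms4a14* had 1.05 TPM in WT, 0.791 TPM in LDAH-KO, 2.87 TPM in Control and 5.41 TPM in LDAH-Tg. Of the *Ms4a* genes compared, it alone passed a factor of 1.5 in LDAH-Tg, with a log2 ratio of 0.81, and it was too low to be compared in LDAH-KO. The CD20 gene *Ms4a1* (0.060 to 0.225 TPM) and *Ms4a2* (0 to 0.043 TPM) were near 0, and *Ms4a3*, *Ms4a10*, *Ms4a12*, *Ms4a13*, *Ms4a15* and *Ms4a18* were listed at 0 in all groups.

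**Figure D4:**
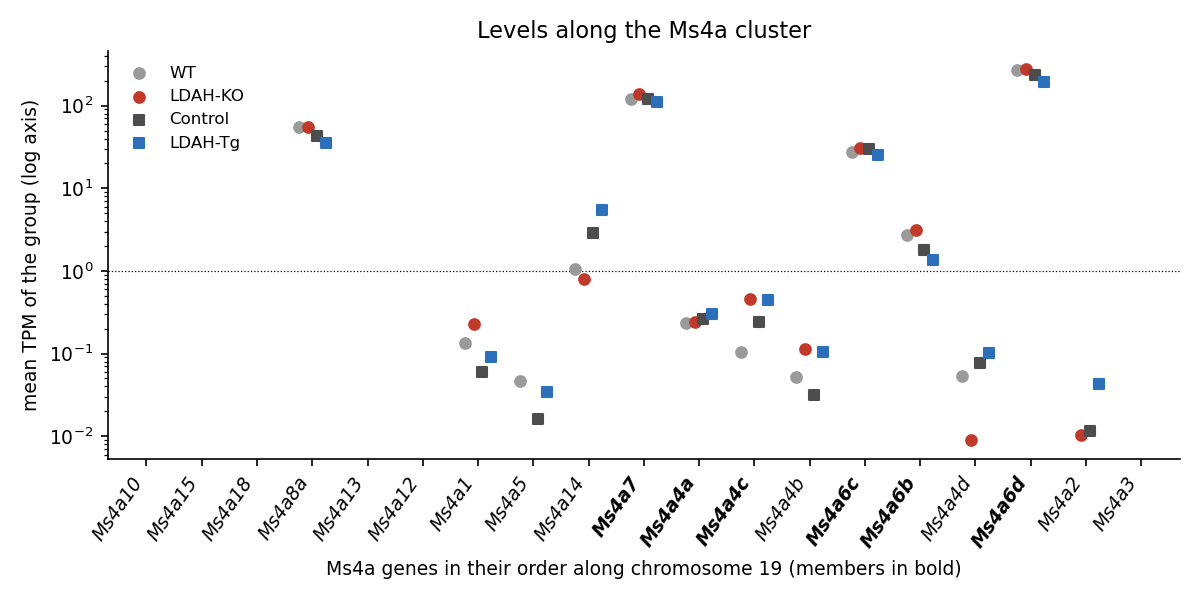
Authors' mean TPM (log axis) of the *Ms4a* genes in their order along chromosome 19, with the members in bold, 1 point for each group mean and a dotted line at 1 TPM. Genes at 0 have no point. *Ms4a8a*, *Ms4a7*, *Ms4a6c* and *Ms4a6d* stand at or above 25.5 TPM in every group, and the other genes at or below 5.41 TPM.

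Few genes around the family could be compared. All 10 neighbours of the *Tmem176* pair (5 on each side) had means under 1 TPM and could not be, among them the GTPases *Gimap1*, *Gimap3*, *Gimap5* and *Gimap7*. *Gpnmb*, a lysosomal gene of foam cells, was listed at 0 in all groups. An exact 0 in this table can be a failed estimate. Of 10 neighbours of the *Ms4a* cluster, 4 could be compared and 0 of these passed a factor of 1.5 in either genotype: *Tmem109*, *Prpf19*, *Ccdc86* and *Mrpl16*, with log2 ratios from -0.04 to 0.10 in LDAH-KO and from -0.16 to -0.01 in LDAH-Tg. Inside the cluster, 15 of 16 genes not named *Ms4a* had a mean under 1 TPM, and the other was *AW112010*, an interferon-inducible transcript, at 4.86 TPM in WT, 4.99 TPM in LDAH-KO, 6.45 TPM in Control and 5.64 TPM in LDAH-Tg.

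Tetraspanins and TM4SF genes, other small proteins that cross the membrane several times and organize receptors at the surface, were set beside the members. In LDAH-KO, 0 of 16 compared passed a factor of 1.5, with a median of -0.03. In LDAH-Tg, 1 of 16 was lower and 0 were higher, with a median of -0.07. *Tm4sf19* was the one that was lower, at 7.57 TPM in LDAH-Tg against 13.8 TPM in Control, while the other line had it at 137 TPM (WT) and 106 TPM (LDAH-KO). *Cd63*, a tetraspanin of late endosomes and lysosomes, had 4388 TPM in WT, 4571 TPM in LDAH-KO, 4940 TPM in Control and 4725 TPM in LDAH-Tg. *Cd9* and *Cd53*, tetraspanins of the plasma membrane, had log2 ratios of -0.31 and -0.34 in LDAH-Tg and of -0.003 and -0.08 in LDAH-KO. *Cd81*, also of the plasma membrane, had -0.27 in LDAH-KO and -0.01 in LDAH-Tg.

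Known partners and pathways of the family were also set beside it, and 0 of 9 compared passed a factor of 1.5 in either genotype. *Clec7a*, the dectin-1 gene, had 1804 TPM in WT, 1602 TPM in LDAH-KO, 502 TPM in Control and 379 TPM in LDAH-Tg. *Trem2*, a lipid receptor of foam cells, had 2145 TPM in WT, 2187 TPM in LDAH-KO, 2046 TPM in Control and 2012 TPM in LDAH-Tg. Its adaptor *Tyrobp* had log2 ratios of 0.20 in LDAH-KO and -0.11 in LDAH-Tg. Of the inflammasome genes, the sensor *Nlrp3* had -0.18 in LDAH-KO and 0.07 in LDAH-Tg, its adaptor *Pycard* 0.32 and 0.06, the protease gene *Casp1* 0.07 and -0.001, and the cytokine gene *Il18* 0.22 and -0.01. *Il1b* was at or under 0.036 TPM in all groups and *Fcer1a* at or under 0.081 TPM.

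Genes whose 4 group means, each taken relative to the gene's own mean over the groups on the log2 scale, lay nearest to those of a member were sought among protein-coding genes with a mean of at least 5 TPM. Nearness is the root mean square distance over these 4 points, which is a description over 4 group means and not over mice. For *Tmem176b* the nearest were *Serpinh1*, the collagen chaperone (0.053), *Igfbp7*, a secreted binding protein (0.079), *Cryab*, a small heat shock protein (0.094), and *Efcc1* (0.096), the 4 of 8692 genes within 0.1. *Serpinh1* had 15.01 TPM in WT, 7.90 TPM in LDAH-KO, 14.002 TPM in Control and 16.1 TPM in LDAH-Tg. For *Tmem176a* no gene lay within 0.1, and the nearest were *Serpinh1* (0.143), *Tmem176b* (0.150) and *Nfat5* (0.168). These distances reuse the low LDAH-KO mean by which the family was chosen. Nothing is therefore read from how few genes lay near the *Tmem176* pair. The *Ms4a* patterns were common, with 273 genes within 0.1 of *Ms4a6b*, 553 of *Ms4a6c*, 722 of *Ms4a6d* and 648 of *Ms4a7*. The nearest were *Yipf4*, *0610009B22Rik* and *Rnf130* for *Ms4a6b*, *Ssc4d*, *Lcmt2* and *Mrpl18* for *Ms4a6c*, *Gm6377*, *Txndc12* and *Mrpl35* for *Ms4a6d*, and *Tfpi*, *Sap30* and *Mcts1* for *Ms4a7*, at distances from 0.0069 to 0.026. *Ms4a6c* and *Ms4a7* were 0.050 apart.

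Markers of other cell types were checked because a preparation of PM can hold other cells. In LDAH-KO, 4 of 4 fibroblast markers compared were lower by at least a factor of 1.5 (median -1.13 on the log2 scale), and so were 3 of 3 mesothelial markers (median -0.82). In LDAH-Tg, 1 of 4 fibroblast markers was higher by that factor, *Col1a1*, at 5.44 TPM against 3.26 TPM in Control (log2 ratio 0.66), while *Dcn* had -0.24, and the median was 0.12. Of the 2 mesothelial markers compared there, none passed the factor. The 6 listed fibroblast markers summed to 32.4 TPM in WT, 16.4 TPM in LDAH-KO, 23.2 TPM in Control and 23.8 TPM in LDAH-Tg, and the 6 mesothelial markers to 7.66, 3.82, 6.03 and 6.00 TPM. *Col3a1*, a fibrillar collagen gene, was at 4.75 TPM in WT against 1.61 TPM in LDAH-KO, and *Upk3b*, a mesothelial gene, at 1.797 TPM against 0.694 TPM. *Lum*, *Dpt*, *Msln* and *Lrrn4* stayed under 1 TPM in all groups. Like the *Tmem176* pair, both sums were lowest in LDAH-KO, and their part in its lower level was not tested. *Col1a1*, listed as a fibroblast marker, was at 2.44 TPM in WT against 0.88 TPM in LDAH-KO. The paper assigns this gene's changes to macrophages and proposes that LDAH induces it through the liver X receptor (LXR). There, LDAH overexpression also raised *Col1a1* in bone marrow-derived macrophages, and an LXR agonist reversed its drop in LDAH-KO PM. Whether fibroblasts or macrophages gave the lower collagen means here was not tested.

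Macrophage markers were abundant, with *Cd68* at 3023 to 4959 TPM, and 0 of 7 compared passed a factor of 1.5 in either genotype (medians of -0.14 in LDAH-KO and -0.09 in LDAH-Tg). *Adgre1*, the F4/80 gene, had 146 TPM in WT, 147 TPM in LDAH-KO, 33.1 TPM in Control and 22.4 TPM in LDAH-Tg. *Lyz2* is listed at 0 in 3 groups, so no ratio of it is given. *Gata6*, the transcription factor of resident PM, had 1.83 TPM in WT, 1.11 TPM in LDAH-KO, 1.97 TPM in Control and 2.07 TPM in LDAH-Tg. Its log2 ratio in LDAH-KO was -0.54, short of a factor of 1.5 with 0.5 TPM added, while the plain ratio of the means was 0.605. The other resident PM markers compared had log2 ratios of 0.40 (*Icam2*) and 0.29 (*Fcna*) in LDAH-KO, so the 3 did not share a direction. In LDAH-Tg the ratios were 0.06 for *Gata6*, -0.19 for *Icam2* and -0.41 for *Fcna*. *Timd4* was at 0.046 to 0.133 TPM. Dendritic cell markers, which matter since the *Tmem176* genes are known from these cells, summed to 0.721 TPM in WT, 0.95 TPM in LDAH-KO, 0.838 TPM in Control and 1.20 TPM in LDAH-Tg over 7 genes. Summed markers of mast cells ran from 0.441 to 2.13 TPM, of T cells from 1.499 to 2.90 TPM and of monocytes from 2.04 to 4.82 TPM. B cell markers summed to 12.7 to 21.8 TPM, nearly all from *Ighm*, and neutrophil markers to 73.2 to 113 TPM, mostly from *S100a8*, while *Ly6g* was at 0.

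**Figure D5:**
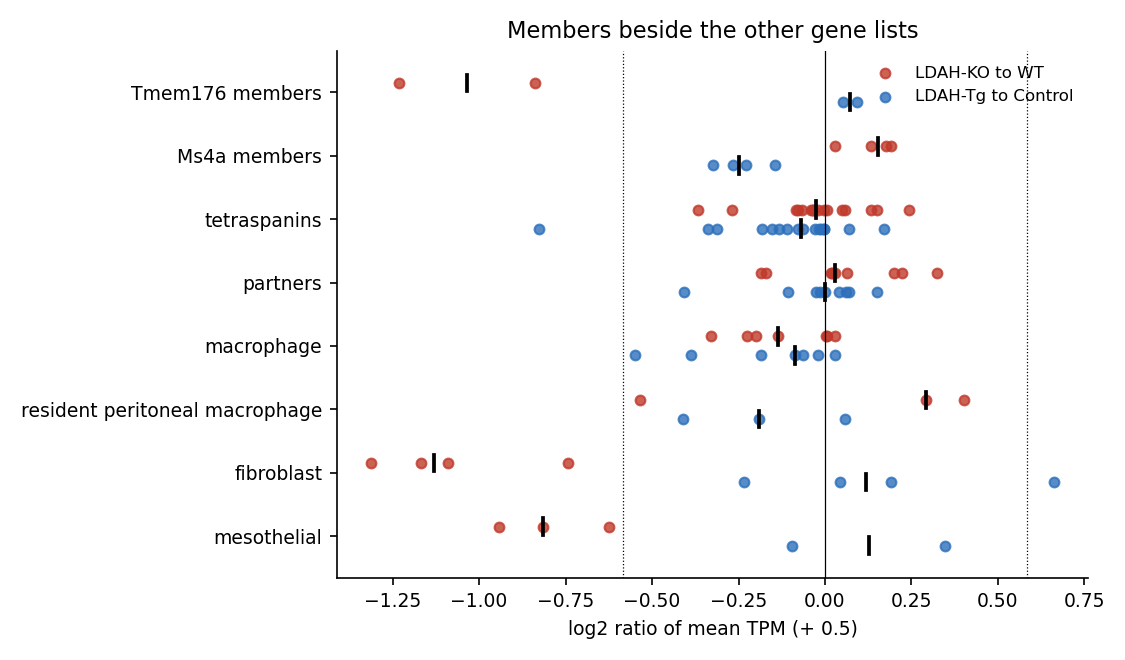
Log2 ratios (0.5 TPM added) of the *Tmem176* and *Ms4a* members beside 6 other gene lists, LDAH-KO to WT in red and LDAH-Tg to Control in blue. Each point is 1 gene compared, black bars are medians and dotted lines mark a factor of 1.5. The red points of the *Tmem176* members, of the fibroblast markers (median -1.13) and of the mesothelial markers (median -0.82) lie to the left of the lower line.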

How the data were processed

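RNA of 16 samples, 4 for each of WT, LDAH-KO, Control and LDAH-Tg, was sequenced by the authors from poly(A)-enriched, stranded libraries with paired reads. Reads were trimmed with Trimmomatic and aligned to GRCm38 with STAR (2.4.2a). The submitters' processing notes also list Cuffdiff (2.2.1), HTSeq, bcl2fastq (2.17.1.14) and DESeq2. How TPM was made and which annotation was used is not given in the sources used here. The authors deposited the mean TPM of each group for 48432 genes, in columns that sum to 1000000, and 1 line with the total, which was left out. No replicate, spread or depth can be seen, so the fits planned for values of single samples were replaced by descriptions of means.

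Log2 ratios used a pseudocount of 0.5 TPM, a minimum mean of 1 TPM over both groups and no group at 0. Where a symbol had several entries (116 beyond the first), the one with the highest mean was kept. GENCODE M21 held 99.2% of the identifiers, and from it coordinates and coding sequences were taken. *Tmem176a* and *Tmem176b* share 1 locus entry in the authors' table, so their reads could have been split between them. The locus entries of *Ms4a4c*, *Ms4a6b* and *Ms4a6c* were each also held by 2 genes, so the same limit applies to their levels. Promoter windows came from RefSeq (GRCm38.p6). No window of *Ms4a6d* and no protein sequence was used here.

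The members and the gene lists were chosen with earlier results of these data known. The text names the members, *Ldah*, the other *Ms4a* genes, up to 4 of each list with the largest ratios, markers that define a cell type, the neighbours, and the 3 genes most like each member (4 for *Tmem176b*, where 4 lay within 0.1). *Cxcl13* and *Fn1* were added for their place beside *Tmem176a* and *Cd63*, *Trem2*, *Nlrp3*, *Casp1*, *Il1b*, *Fcer1a*, *BE692007* and *AW112010* for their roles or place, after their values were seen. The log2 ratios, median-ratio scaling and quantile normalization were tested on group means with known changes put in, and the other steps were not. Python 3.11.15, numpy 2.4.6, pandas 2.3.3, matplotlib 3.10.9 and Biopython 1.88 were used. Pseudocounts of 0.1, 1 and none, no filter, a minimum of 5 TPM, median-ratio scaling, quantile normalization, protein-coding genes alone and a factor of 2 were tried as alternatives.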

Additional observations from a re-analysis of the deposited data

How the results depend on the processing

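Of 141 single-member ratios under the alternatives, 139 kept their sign and their side of a factor of 1.5, whatever their change in size. The exceptions were the ratio of WT to Control of *Tmem176b*, 0.03 as reported, which was -0.15 after median-ratio scaling and -0.20 after quantile normalization. Within these limits other ratios of WT to Control also changed in size with the scaling: *Ms4a6d* went from 0.21 down to 0.02, *Tmem176a* from 0.35 to 0.16, *Ms4a6c* from -0.11 to -0.35 and *Ms4a7* from -0.02 to -0.21. Of 52 counts and medians over the members, 50 stayed within 1.5 times (counts) or kept their sign and side (medians). The median of the members in LDAH-KO ranged from 0.03 at a minimum of 5 TPM to 0.16 after median-ratio scaling, and that in LDAH-Tg was -0.05 with no filter on low values. With a factor of 2, 1 member (*Tmem176a*) was lower in LDAH-KO. With no filter on low values, 1 member (*Ms4a4c*) was higher in LDAH-KO. The median of the *Ms4a* members compared stayed above 0 in LDAH-KO (0.13 to 0.23) and below 0 in LDAH-Tg (-0.25 to -0.19) under every alternative to the ratio. Against WT, 207 genes were lower and 44 higher in LDAH-KO as reported, 161 and 59 after median-ratio scaling, 134 and 80 after quantile normalization, 64 and 11 at a minimum of 5 TPM, 145 and 9 among protein-coding genes, and 362 and 98 with no filter. Against Control, 78 were lower and 144 higher in LDAH-Tg, 39 and 57 at a minimum of 5 TPM, 36 and 71 among protein-coding genes, 133 and 255 with no filter, and 110 and 234 with no pseudocount. No paired analysis was possible because the table holds group means and no values of single samples, and for the same reason no replicate was left out. Depth cannot be seen, so how far counting error reaches at the levels of *Ms4a4a* and *Ms4a4c* is unknown.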
